A study of Mus musculus with 2 samples.

Results

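Long intergenic non-coding RNAs (lincRNAs) that reached a set level in the cortex of young mice were examined: 162 genes of the 5844 whose every annotated transcript was of the lincRNA type, in an annotation of 55536 genes. They were selected on measured values, as the genes at 2 or more TPM (transcripts relative to the summed abundance of a library) in both libraries, so their levels are a description and carry no test. Meg3, Mirg, Rmrp, Gm26917 and Gm42418 met the same criteria and were left out by name. Total RNA was sequenced in 2 libraries of 1 group, left cerebral cortex taken at 14 days of age from B6CASTF1/J males, a first-generation cross between C57BL/6 and CAST, each made from 300 ng of RNA with synthetic ERCC spike-in RNAs added. The labels name a separate biosample for each library but 1 donor entry, and they speak of 3 males, so separate animals are not stated and the spread between libraries may be technical. No other strain, age, sex or treatment was included, and no p-value is given because 1 group of 2 libraries offers no comparison of conditions.

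A lincRNA is transcribed, capped and usually spliced like a messenger RNA but is not annotated with a protein product. Some act in the nucleus, where they gather splicing or paraspeckle proteins, some bind proteins or microRNAs in the cytoplasm, and for others the transcript mainly carries a microRNA or a small nucleolar RNA that is cut out of it. Brain expresses many of them, including the dendritic RNA Bc1 and the hosts of the neuronal microRNAs miR-124 and miR-9. The files name several by clone identifiers. RefSeq lists 2900097C17Rik as a synonym of Norad, C230004F18Rik of Cdr1os and Cdr1as, and 1700020I14Rik of Oip5os1 and Cyrano.

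Stretches of 4 of these RNAs are shown first because they carry a motif repeated many times or a long complement of a microRNA. Transcript sequences were those of GENCODE M21, and each was searched on the strand of the transcript. The mature miR-7a-5p of RefSeq (GRCm38.p6) is given first, with its seed, bases 2 to 8, in capitals, followed by 300 bases (1564 to 1863) of C230004F18Rik-206 in which capitals mark the seed match GTCTTCC, and 30 bases (2930 to 2959) of 1700020I14Rik-202 marked the same way.
mmu-miR-7a-5p: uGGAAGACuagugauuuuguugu
C230004F18Rik-206: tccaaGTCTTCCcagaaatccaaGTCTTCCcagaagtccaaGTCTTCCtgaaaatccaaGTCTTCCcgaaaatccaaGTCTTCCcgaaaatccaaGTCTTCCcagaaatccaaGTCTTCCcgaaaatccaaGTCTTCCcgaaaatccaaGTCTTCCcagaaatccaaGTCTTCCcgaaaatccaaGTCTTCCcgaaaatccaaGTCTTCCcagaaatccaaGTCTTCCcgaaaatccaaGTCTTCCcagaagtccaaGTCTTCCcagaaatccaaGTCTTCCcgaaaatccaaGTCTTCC
1700020I14Rik-202: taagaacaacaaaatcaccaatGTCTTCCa
C230004F18Rik lies on chromosome X from 61116378 to 61292484 on the plus strand (mm10) and spans the coding gene Cdr1 on the opposite strand. Its main transcript of 3354 nt held 123 matches to the miR-7 seed, or 36.7 per kb, and 17 of them fell in the 300 bases shown. Among 18047 transcripts of like length (0.8 to 1.25 times), the median held 0 matches and 1, this transcript itself, held as many. A match occurred in 13.8% of all 141767 transcripts. Beyond the seed, the longest further run complementary to the microRNA in the 30 bases before each match was 3 to 7 bases, with a median of 6. The pattern differed in 1700020I14Rik, whose 8300 nt transcript held 2 matches. At the second, a further run of 13 bases was complementary to bases 11 to 23 of miR-7a-5p; at the first, at base 762, the further run was 3 bases. These matches describe sequence only, and the binding of miR-7 was not measured.

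The next set shows an element bound by Pumilio proteins, TGTANATA, in the Norad transcript 2900097C17Rik-202 (bases 1144 to 1343), and the repeated ACTAAC of Miat-201 (bases 4470 to 4669), each in capitals.
2900097C17Rik-202: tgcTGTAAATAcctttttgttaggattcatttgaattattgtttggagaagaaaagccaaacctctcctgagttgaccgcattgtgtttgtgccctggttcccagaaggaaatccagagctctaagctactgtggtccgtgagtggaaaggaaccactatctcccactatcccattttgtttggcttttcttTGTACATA
Miat-201: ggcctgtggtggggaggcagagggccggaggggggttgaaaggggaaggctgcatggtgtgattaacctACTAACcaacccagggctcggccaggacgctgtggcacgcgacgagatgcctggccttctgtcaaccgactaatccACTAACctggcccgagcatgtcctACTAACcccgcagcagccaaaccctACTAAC
The 4915 nt Norad transcript, which is known to bind Pumilio proteins, held 11 elements, as did 0.0308% of 9754 transcripts of like length. Each such pool, here and below, includes the transcript itself. A second gene, Gm7292 on chromosome 6, held 9 elements in 2527 nt, as did 0.005% of 20033 transcripts of like length, and its whole length aligned to bases 19 to 2553 of the Norad transcript at 99.2% identity. That stretch holds 9 of the 11 Norad elements. Miat, also called Gomafu, is a nuclear RNA of neurons, and its 8758 nt transcript held 11 copies of ACTAAC, as did 0.146% of transcripts of like length. All 11 lay between bases 4539 and 6449.

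**Figure D1:**
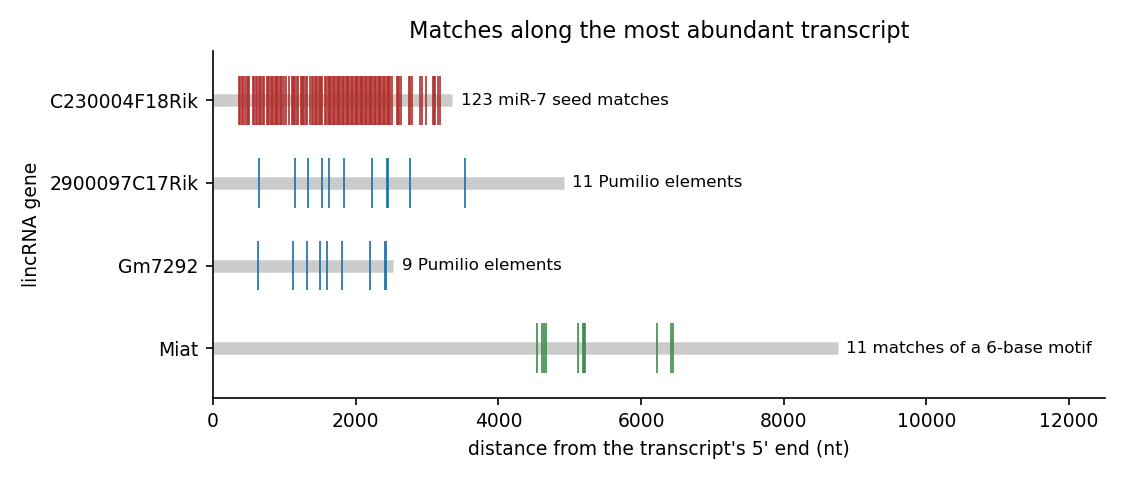
Positions of matches along the most abundant transcript of 4 lincRNA genes. The horizontal axis is the distance from the 5′ end in nt, grey bars are the transcripts and each vertical line is 1 match: the miR-7 seed matches of C230004F18Rik fill the stretch from base 363 to base 3188, the Pumilio elements of Gm7292 repeat the spacing of those in 2900097C17Rik, and the 11 motif matches of Miat lie between bases 4539 and 6449.

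Bc1, a short RNA transcribed by RNA polymerase III and carried into dendrites, where it represses translation, is annotated as 1 exon of 168 bases on chromosome 7 (144914470 to 144914637, plus strand). Capitals mark its 3 runs of 5 or more A.
Bc1-201: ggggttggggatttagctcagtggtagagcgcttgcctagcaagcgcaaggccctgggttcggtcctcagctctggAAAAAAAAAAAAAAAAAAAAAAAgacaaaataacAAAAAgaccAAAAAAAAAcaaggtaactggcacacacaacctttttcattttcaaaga

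Together the 162 genes took 1.34% of the 28263266 expected counts of annotated genes in replicate 1 (95% Wilson interval 1.34% to 1.35%) and 1.39% of 30862848 in replicate 2 (1.38% to 1.39%), intervals that cover counting error only. Malat1 alone took 0.841% and 0.849%, and the other 161 genes took 0.50% and 0.536%. The remaining 5677 lincRNA genes, below the minimum in at least 1 library, held 0.0537% and 0.0505%, and 3565 lincRNA genes had 0 expected counts in both libraries. The median member stood at 5.65 TPM in replicate 1 and 5.36 in replicate 2, against 18.0 and 17.9 for protein-coding genes selected by the same minimum. Low levels prevailed: 76 had a mean between 2 and 5 TPM, 41 between 5 and 10, and 7 reached 100 TPM in each library, with Gm3764 among them in replicate 1 only and Miat in replicate 2 only.

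Malat1 (chromosome 19, 5795690 to 5802672, minus strand), an RNA of nuclear speckles, was the highest at 3773 TPM in replicate 1 and 3824 in replicate 2, the twelfth highest annotated gene of each library. It made up 56.1% and 55.2% of the summed TPM of the members. The libraries differed little for this gene relative to its level. Norad stood at 467 and 440 TPM, and C230004F18Rik at 333 and 435. The circular RNA Cdr1as of the latter locus has no entry of its own in the files, so no value is given for it; reads of the circle and of the linear transcripts cannot be told apart here. The coding gene Cdr1 on the opposite strand was listed at 0 TPM in replicate 1 and at 0.03 in replicate 2. Bc1 followed with 265 and 289 TPM from 347 and 404 counts, a level that divides few reads by a very short effective length. Cyrano, known for directing the decay of miR-7, stood at 134 and 148 TPM. Norad was above C230004F18Rik in both libraries, but in replicate 2 they were nearly level.

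Miat reached 95.9 and 117 TPM. It shares the nucleus with the other members of the nuclear architecture list, of which Neat1, the scaffold of paraspeckles, stood at 10.04 and 9.23 TPM, and Pvt1, a neighbour of Myc, at 11.2 and 11.8. Malat1 and Neat1 lie close together on chromosome 19 but stood far apart in level. Of the 6 genes in that list, 4 were members; Tug1 and Firre were detected but have transcripts of other types.

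**Figure D2:**
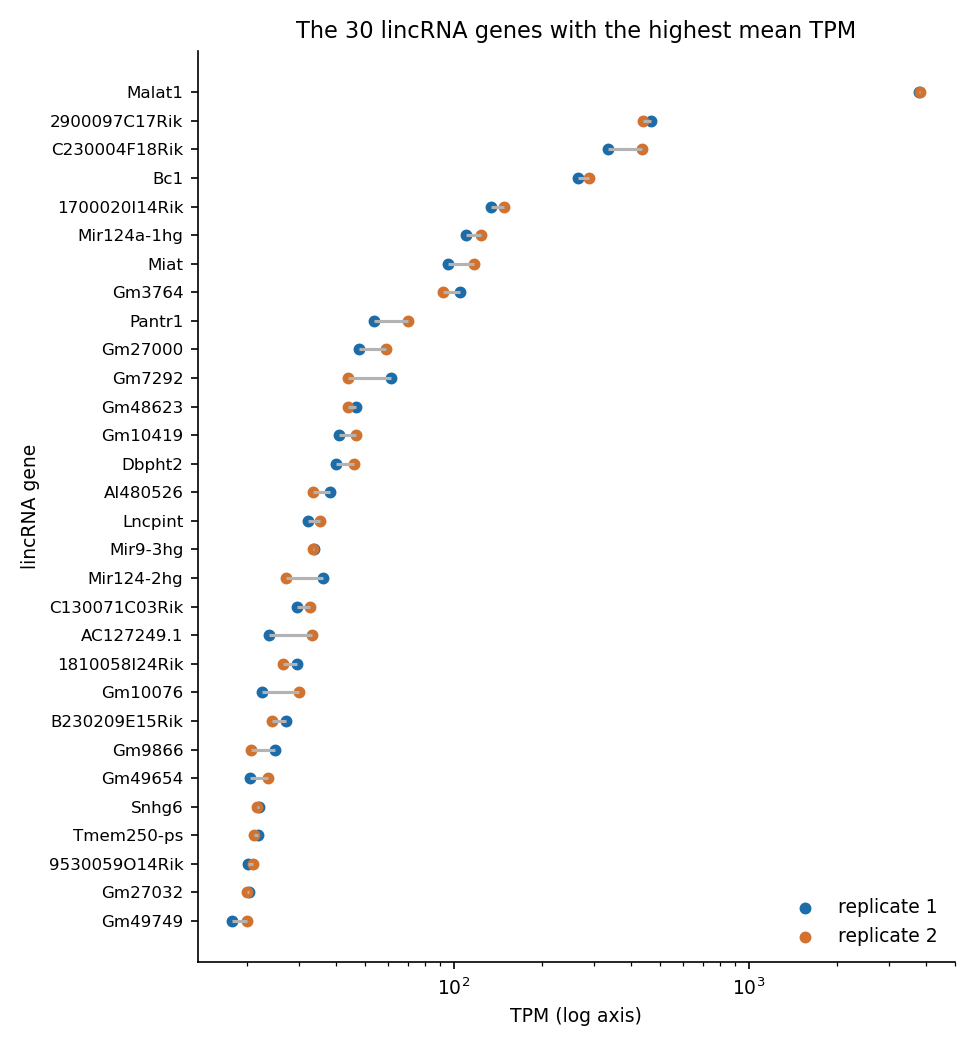
Levels of the 30 lincRNA genes with the highest mean TPM. The horizontal axis is TPM on a log scale, points are the 2 libraries and a grey line joins them: Malat1 stands alone at 3773 and 3824 TPM, and the 2 points of every gene shown lie within 2-fold of each other.

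MicroRNA hosts were found at high and low levels. In all, 14 members contained 26 of the 1005 microRNA hairpins of the RefSeq table on their own strand, a count that does not include Mir124a-1hg and Mir124-2hg. Hosts outside the members were not counted, so the number is not read as particular to them. The 3 hairpins that give miR-9, a microRNA of neural progenitors and neurons, lay in 3 separate members: Mir9-1 in Gm3764, Mir9-2 in C130071C03Rik and Mir9-3 in Mir9-3hg. Their products have the same sequence, shown with the seed in capitals beside those of let-7a, miR-138 and miR-129.
mmu-miR-9-5p: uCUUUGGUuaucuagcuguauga
mmu-miR-9-3p: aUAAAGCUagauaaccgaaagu
mmu-let-7a-5p: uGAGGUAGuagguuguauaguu
mmu-let-7f-5p: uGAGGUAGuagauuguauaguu
mmu-let-7d-5p: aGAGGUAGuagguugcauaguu
mmu-miR-138-5p: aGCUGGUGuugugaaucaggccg
mmu-miR-129-5p: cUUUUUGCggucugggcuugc
Gm3764 stood at 105 and 92.0 TPM, C130071C03Rik at 29.4 and 32.6, and Mir9-3hg at 33.6 and 33.3. Gm3764 was therefore the highest host of miR-9 in both libraries. The let-7 hairpins Mirlet7a-1, Mirlet7f-1 and Mirlet7d, whose 5p products share the seed GAGGUAG, lay in 6720427I07Rik, which was low at 2.82 and 2.95 TPM. C78859, host of Mir138-2, stood at 9.03 and 8.74 TPM, and A230057D06Rik, which spans 7 hairpins of the miR-344 family on chromosome 7, at 9.74 and 9.77. The 3p products of that family fell under 4 seeds, so the cluster does not carry a single seed. Ftx holds Mir421 and Mir374b, and 4833445I07Rik holds Mir191 and Mir425 in 1642 bases at 3.14 and 2.67 TPM.

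Mir124a-1hg and Mir124-2hg are named for miR-124, a microRNA enriched in neurons. Mir124a-1hg stood at 111 and 124 TPM and Mir124-2hg at 36.1 and 27.1, so the former was higher in both libraries. The libraries moved these hosts in opposite directions, by 0.24 and -0.46 on the log2 scale of counts. Mir670hg, host of Mir129-2 and Mir670, stood at 7.72 and 5.58 TPM. These values are those of host transcripts; the libraries do not measure mature microRNAs.

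Of the 17 annotated genes in the list of small nucleolar RNA hosts, 5 had only lincRNA transcripts and 4 were members. Snhg18 stood below the minimum, at 0.65 and 0.85 TPM. The hosts with transcripts of other types ran from Snhg15 (2.35 and 2.30 TPM) to Snhg14 (645 and 598). Snhg6 stood at 21.9 and 21.6 TPM, Snhg20 at 20.3 and 16.9, Snhg12 at 17.02 and 17.8, and Snhg10 at 3.81 and 4.09. Snhg10 was the lowest of the 4 in both libraries. Scarna13, a Cajal body RNA in an intron of Snhg10, took 489 and 481 expected counts, against 31 and 29 for the host. In Snhg12 the annotation places small RNA genes inside exons, and Snora44 there took 37.7 and 16.8 counts, so reads of host and small RNA may be divided between them.

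Among the remaining lists, Ftx (11.1 and 10.1 TPM) and Jpx (5.90 and 4.88), activators in the X inactivation centre, were members while Xist stood at 0.04 and 0.01 TPM in these males. Lncpint, a target of p53, stood at 32.2 and 35.3 TPM and Epb41l4aos at 6.22 and 5.44. Pantr1 was the only member of the list of brain and developmental regulators, with 53.8 and 69.9 TPM. In that list 20 genes were annotated and 5 had only lincRNA transcripts, of which Hotair, Otx2os1, Lhx1os and Bvht stood below the minimum in both libraries. No gene of the imprinted list was a member. The rule left out Meg3 and Mirg by name, and H19, also named, stood below the minimum at 0.65 and 1.04 TPM. The others have transcripts of other types.

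Several members, some of them near the top, resembled other transcripts in sequence, which does not show which gene is the copy. Alignments at 95% identity or more over at least 50% of the main transcript were sought. By that measure 12 of 162 members, Norad and Bc1 included, resembled a gene elsewhere in the genome. Other genes were not searched this way, so no share stands beside this count. It holds partial matches too: Bc1 matched 7 genes, and its alignment to the highest of them, Cnot3, covered 96 bases, or 57.1% of Bc1. Gm27000 (47.7 and 59.0 TPM), a single exon on chromosome X, matched Meg3 over 100% of its 842 nt at 99.9% identity, and Meg3 stood at 1619 and 1623 TPM. Gm10076 (22.4 and 29.97 TPM) matched the ribosomal protein gene Rpl41 over 100% of 383 nt at 99.5%, and Rpl41 stood at 929 and 883 TPM. In both cases the matched gene was far above the member, so the division of reads between them bears on the value of the member. Gm7292, which matched part of Norad, stood at 61.5 and 44.0 TPM. Gm49207, at 11.9 and 11.6 TPM, aligned over 96.1% of 279 nt to Ahsa1 at 99.6%. AC166110.4, at 2.56 and 2.50 TPM, aligned over 100% of 3095 nt to Sod2 at 98.5%. The deposited table gives the spread of each count over the possible assignments of shared reads. That spread was 0 in both libraries for 129 of 162 members, and above 5% of the count in at least 1 library for 7: Gm10076, Gm27000, Gm45733, Gm49207, AC166110.4, AC158975.2 and 2410018L13Rik. For Gm27000 it was 64.0 counts of 674 in replicate 1 and 64.4 of 889 in replicate 2. Genes outside the members were not counted by this spread.

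Annotations also disagreed on what some members are. RefSeq entries were matched for 109 of 162 members by identifier, or by symbol or synonym at an overlapping place, which is under 80%, so no share is given. RefSeq typed 9 of them as protein-coding: Dbpht2, 1810058I24Rik, Tmem250-ps, D930016D06Rik (RefSeq Thoc2l), Gm46430, Gm39469, Gm37494 (RefSeq Gm33989), Gm5165 and Gm32856. It typed Gm10076 and Gm17322 as pseudogenes and 4632415L05Rik and Gm32618 as transcribed pseudogenes. Dbpht2 was the highest of these, at 39.9 and 46.1 TPM, while 1810058I24Rik stood at 29.5 and 26.4. The lincRNA type used to select the members is therefore that of GENCODE M21 only. These 13 were named after their values were seen.

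Position relative to coding genes, which the selection did not use, was described next. A start within 1 kb of the start of a coding gene on the opposite strand (divergent) was found for 31 members, 19.1%, and for 5.0% of the 5676 other lincRNA genes. A start within 5 kb after the end of a coding gene on the same strand was found for 20 members, 12.3%, and for 2.85% of the others. Antisense overlap was counted only for genes that were not divergent, downstream or overlapping a coding gene on its own strand. It was found for 9 members (5.56%) and 5.11% of the others, shares that leave out antisense overlap in those other classes. The 97 members of no such class were 59.9%, against 85.5% of other lincRNA genes. Members also had more annotated transcripts and greater length: 39.5% had 1 transcript against 75.6% of other lincRNA genes, and the median longest transcript was 2004 nt against 960. A single exon was annotated for 32 members, 19.8%, against 4.99%.

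Most divergent members stood below their coding partner. Members of none of the classes above were below their nearest coding gene in 48 of 97 cases, with a median log2 ratio of 0.38. Of those 97 coding genes, 62 reached the minimum of 2 TPM, beside 30 of 31 divergent partners. Members were selected at that minimum, so a coding gene under it tends to lie below its member, which limits the comparison. Divergent members were below their partner in 27 of 31 cases on mean TPM, with a median log2 ratio of -2.86. Pantr1 was an exception: its start lies 926 bases from that of Pou3f3, a POU factor of upper-layer neurons, which stood at 21.4 and 26.7 TPM against 53.8 and 69.9 for Pantr1. AI480526 (38.2 and 33.3 TPM) also stood above its partner Setd1b, a histone methyltransferase (14.98 and 14.3). Gm10419 and M5C1000I18Rik completed the 4 exceptions. Of the other higher divergent members, 5031425E22Rik stood at 12.8 and 13.3 TPM beside Kmt2e at 47.0 and 48.5. 4930570G19Rik stood at 12.7 and 11.98 beside Negr1, a neuronal adhesion protein, at 127 and 123. Next came Gm5113 beside Zfp146, 5033430I15Rik beside Atxn1, 2810032G03Rik beside Klhl29 and Gm17586 beside Mafg, with lincRNA levels of 5.24 to 8.78 TPM in single libraries. The lincRNA and its partner differed between the libraries in the same direction in 15 of 31 pairs, beside 11 of 19 pairs for members just downstream of a coding gene and 50 of 77 for members of no such class and their nearest coding gene.

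RefSeq promoters, from 250 bases before to 50 after the start, were matched for 80 of 162 members. This is under 80%, so a summary over the members is void and none is given. The one shown is that of 4930570G19Rik (GRCm38.p6, chr3:156561638-156561937, minus strand), whose start lies 48 bases from that of Negr1. It has 71.3% G and C, 38 CpG and an observed to expected CpG ratio of 1.02. Capitals mark its match to GGGCGG on either strand, a motif held by 35.7% of all 32851 promoters of the table.
4930570G19Rik promoter: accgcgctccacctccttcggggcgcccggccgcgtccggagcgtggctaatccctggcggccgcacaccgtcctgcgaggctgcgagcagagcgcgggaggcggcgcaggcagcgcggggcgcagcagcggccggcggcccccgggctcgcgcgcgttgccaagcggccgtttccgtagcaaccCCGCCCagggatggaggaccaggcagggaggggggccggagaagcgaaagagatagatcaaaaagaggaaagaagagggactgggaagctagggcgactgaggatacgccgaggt

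Members just downstream of coding genes were also mostly lower than the gene before them, in 16 of 20. Gm49654 (20.5 and 23.5 TPM) began 958 bases after Map3k9 (28.4 and 30.5), and Gm20300 (12.3 and 12.9) 1507 bases after Hint3 (15.8 and 18.97). AI504432 (9.80 and 10.2) began 1434 bases after the potassium channel gene Kcna3 (14.5 and 13.0). Such transcripts may be read as separate genes or as extensions of the gene before them, and the tables do not tell these apart. Neat1 was an exception, at 10.04 and 9.23 TPM beside Frmd8 at 5.52 and 5.06, 4224 bases away. D930016D06Rik after BC005561, Gm37494 after Zfp619 and 1700003M07Rik after Spocd1 completed the 4 exceptions. Gm43597 after N4bp2l2, C78859 after Nup93, AC156546.1 after Jakmip2, 2810455O05Rik after Ccsap and 4933404O12Rik after Ift22 were lower than the gene before them. After divergent and downstream members were set apart, 5 of the rest overlapped a coding gene on its own strand. Among all members, exons of 1300002E11Rik overlap Map3k13, those of Gm17322 Cyp11a1, those of Gm49749 Pcnx and those of Gm49797 Scaf8. Exons of 3110039M20Rik (3.70 and 3.35 TPM) overlap Gm43517 (3.67 and 3.40), and those of Gm5914 overlap Agrp (0.09 and 0 TPM). The counts of these members may be shared.

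**Figure D3:**
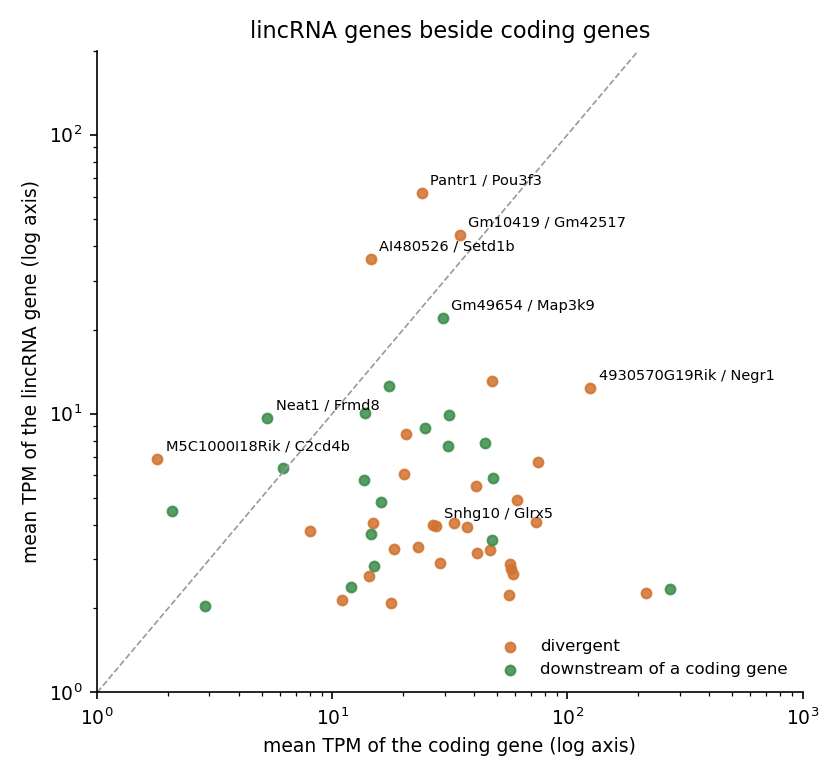
Mean TPM of 31 divergent and 20 downstream lincRNA genes against that of their coding gene, both on log axes, with a dashed line at equal levels. Most points lie below the line: 27 of 31 divergent and 16 of 20 downstream members stood lower than the coding gene.

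Differences between the libraries were small for the members. As log2 CPM (counts scaled to library size), replicate 2 minus replicate 1 with TMM factors, none of 162 passed 2-fold in either direction. The background was 3.94% of 18965 genes tested and 0.487% of 11918 protein-coding genes with the same minimum. The minimum of 2 TPM in both libraries by itself removes genes that fall low in 1 library, so the count of 0 is not read as a property of lincRNAs. Differences ran from -0.77 in 1110015O18Rik (78 and 48 counts) to 0.75 in Gm49678 (57 and 104 counts), with 80 members higher in replicate 2 and 82 lower. The median size of the difference was 0.16, against 0.097 for protein-coding genes. The order depended on the mean count. At 10 to 50 counts the median size was 0.21 in members against 0.24 in coding genes. At 50 to 100 it was 0.18 against 0.19, and at 100 to 500 it was 0.15 against 0.13. At 500 to 1000 it was 0.12 against 0.092, and at 1000 or more 0.19 against 0.078.

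Among members with a mean of at least 100 counts, the most positive differences were those of AC127249.1 (1416 and 2110 counts, 0.48), M5C1000I18Rik (153 and 224, 0.45) and Gm28928 (165 and 240, 0.44). They were followed by Gm10076 (0.41), C230057M02Rik (0.39), C230004F18Rik (20581 and 28689 counts, 0.38), Gm26945 (0.37) and Gm17322 (0.36). AC127249.1 lies 8156 bases from Kctd16, which stood at 53.8 and 73.4 TPM. The most negative were AC102496.1 (136 and 102 counts, -0.51), Mir124-2hg (1539 and 1194, -0.46) and Mir670hg (115 and 89, -0.46). Then came 1300002E11Rik (-0.46), 2900079G21Rik (-0.44), Gm9916 (-0.36), Gm47204 (-0.36) and Gm5165 (-0.31). C230004F18Rik was the one with the most reads among these 16.

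**Figure D4:**
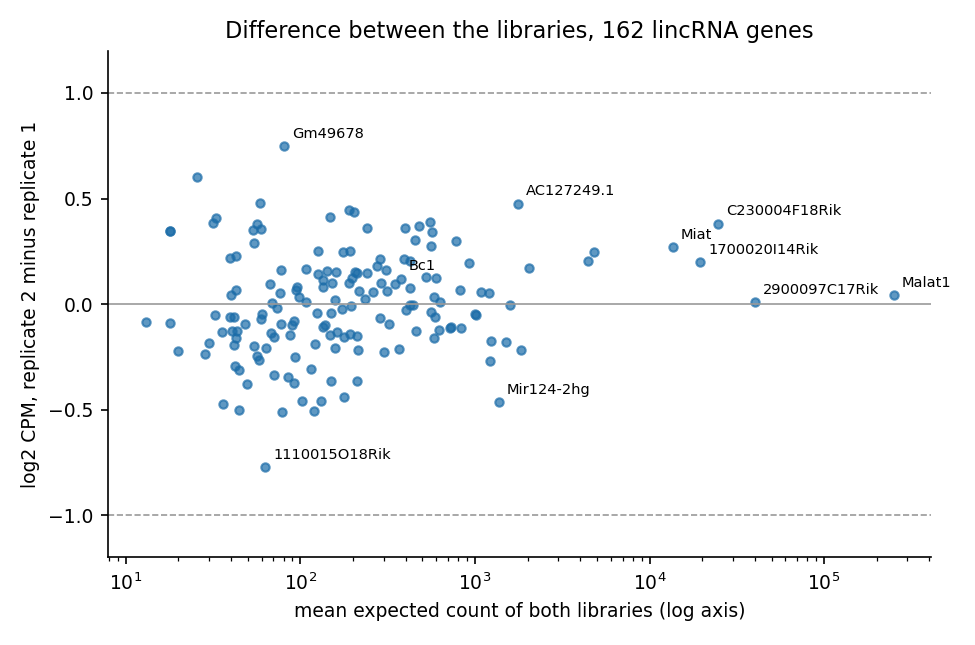
Difference between the libraries for the 162 lincRNA genes. The horizontal axis is the mean expected count on a log scale, the vertical axis is log2 CPM of replicate 2 minus replicate 1, and dashed lines mark 2-fold: all points lie between -0.77 and 0.75.

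All 8 markers of cortical excitatory neurons reached 2 TPM in both libraries, so the labelled tissue had its markers, but the summed level of several marker lists differed between them. Markers of striatal projection neurons summed to 621 TPM in replicate 1 and 176 in replicate 2, and 11 of 11 were lower in replicate 2. The 8 markers of cortical excitatory neurons summed to 1674 and 1999 TPM and 8 of 8 were higher in replicate 2, while oligodendrocyte markers summed to 1013 and 672 with 8 of 8 lower. Interneuron markers summed to 605 and 494 TPM, with 6 of 8 lower and Pvalb and Vip higher in replicate 2. Choroid plexus markers summed to 33.5 and 124 TPM with 5 of 6 higher; Ttr alone gave 30.4 and 118, and it was the only one at the minimum in both libraries. Astrocyte markers summed to 1608 and 1658 TPM and cerebellar markers to 0.67 and 2.29. The part of these markers in the differences of single lincRNAs was not tested. In bulk tissue, fewer cells of a type and less RNA per cell cannot be told apart.

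The share of a gene's TPM in each of its transcripts was not used in the selection. Of the 162 members, 64 had 1 annotated transcript. Among the other 98, 1 transcript took over 50% in both libraries in 55, or 56.1%, beside 63.1% of 10859 protein-coding genes at the same minimum with at least 2 transcripts. Coding genes have more annotated transcripts, and within classes of transcript number the gap was wider. A dominant transcript was found in 75.8% of 33 members with 2 transcripts against 96.6% of coding genes. With 5 to 9 transcripts the shares were 33.3% of 21 members against 58.8%. These classes were not matched on level or counts. The median member stood at 5.65 and 5.36 TPM, against 18.0 and 17.9 for coding genes at the minimum. The part of that difference in the gap was not tested. Both libraries gave the same highest transcript in 80 of 98 members. Between tables, the gene's highest transcript by mean share was the same in the second transcript table for 64 of 98. In 37, the same transcript was over 50% in both libraries of both tables. These counts have no share of coding genes beside them and are not read as particular to lincRNAs.

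**Figure D5:**
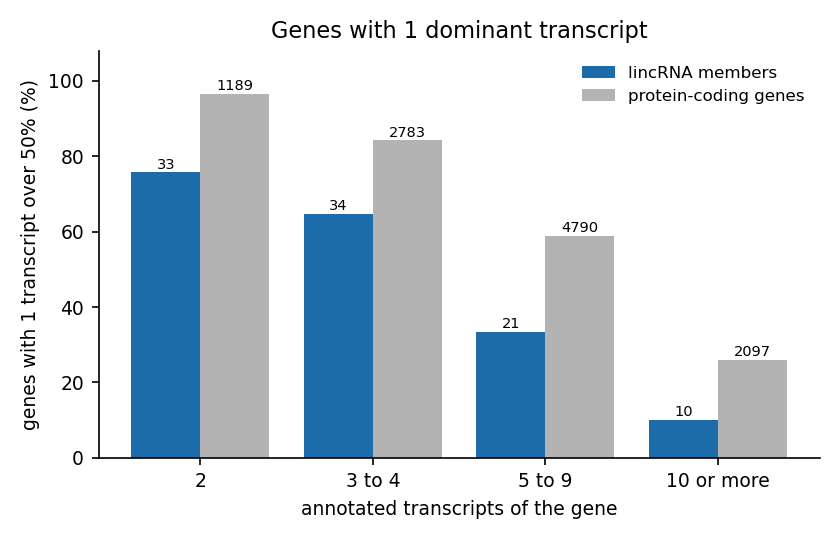
Share of genes in which 1 transcript took over 50% of the TPM in both libraries, by the number of annotated transcripts, with the number of genes above each bar. Members lie below protein-coding genes in each class, from 75.8% against 96.6% with 2 transcripts to 1 of 10 members against 26.1% with 10 or more. The classes were not matched on level or counts.

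Lncpint had the most transcripts, 16, and its highest by mean share, Lncpint-214, took 18.1% and 19.1%. Pantr1 and Ftx had 12 each, with 45.3% and 53.7% in Pantr1-212 and 30.5% and 38.2% in Ftx-205, whereas the second table put Pantr1-209 and Ftx-212 highest. Gm3764, C230004F18Rik, Jpx and Gm2694 had 11 each. Reads of the circular and linear RNAs of C230004F18Rik cannot be told apart, so its shares may hold both. This was the gene with 10 or more transcripts that had a dominant one: the transcript with 123 seed matches took 84.0% and 87.6% of it. In contrast, the highest transcript of Gm3764 took 24.8% and 21.97%, and another transcript was highest in the second table. The highest transcript changed between libraries in M5C1000I18Rik, where M5C1000I18Rik-203 took 88.6% in replicate 1 and 0.00% in replicate 2 while M5C1000I18Rik-201, which is 1 base longer, took 3.03% and 79.5%. The second transcript table of the same libraries gave M5C1000I18Rik-201 86.2% and 77.0%, so the change was not seen there. With M5C1000I18Rik, the 8 highest by mean TPM among the members whose highest transcript differed between the libraries were Gm7292, Lncpint, 4632415L05Rik, 1300002E11Rik, A530017D24Rik, Jpx and 2610035D17Rik.

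Transcript shares also acted on gene TPM. 6430584L05Rik was the one member past 2-fold by TPM, at 4.82 and 2.29, although its counts went from 111 to 142. Its 117 nt transcript took 60.7% in replicate 1 and 0.00% in replicate 2, and its effective length went from 1212 to 3052. The second table gave the longer transcript, 6430584L05Rik-201, all of the gene in both libraries. TPM and counts differed in direction for 12 of 162 members, and by at least 0.25 on the log2 scale in 4 of them: Gm40841, Snhg10, 6430584L05Rik and 1700086O06Rik.

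A second transcript table of the same libraries was compared with the gene table. Its TPM values, summed per gene, were set relative to the median ratio of protein-coding genes to the gene table, 1.56 and 1.54. Within 2-fold of that median in both libraries were 143 of 162 members, 88.3%, beside 98.0% of 11918 protein-coding genes. Bc1, Gm10076 and Gm49207 were listed at 0 in the second table. Bc1 is 168 nt long and the others resemble coding genes, but the cause of the 0 values was not tested. Gm45733, Gm44698, Gm5914, Gm49678, Malat1 and Gm49749 had the lowest ratios among the rest. Malat1 stood at 2650 and 2690 TPM there, although the ratio of its counts in the tables, set relative to coding genes the same way, was 0.035 on the log2 scale in replicate 1. The gene table gave 44.2% and 45.2% of Malat1 to the 6983 nt transcript Malat1-201 and the rest to 3 transcripts of 485 to 656 nt, whereas the second table gave Malat1-201 99.9% in both libraries. Gm20186 had the highest ratio, with 2.22 and 3.00 TPM in the gene table and 33.5 and 44.5 in the second. A230006K03Rik, Gm27000, Snhg20, Gm8066 and 1700003M07Rik followed, and Gm27000, which matched Meg3, stood at 285 and 310 TPM there.

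The minimum of 2 TPM lies in a dense range. Just inside it were Gm26890 (2.06 and 2.01 TPM), Gm2694 (2.02 and 2.83), 1700086O06Rik (2.12 and 2.07), Gm15728 (2.18 and 2.10) and Gm48992 (2.10 and 2.21). Just outside were BC030343 (1.96 and 1.96), Gm26652 (1.94 and 2.26), D730003I15Rik (1.98 and 1.94), 4933412O06Rik (2.42 and 1.93) and Gm27004 (2.18 and 1.88). The values on either side overlap, and the deposited TPM interval of 33 of 162 members reached below 2 in at least 1 library. A further 36 lincRNA genes reached the minimum in 1 library only.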

How the data were processed

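Total RNA of 2 libraries in 1 group was analysed. Per the file headers, a gene table and a transcript table hold the authors' expected counts (estimated reads, not normalized), TPM relative to all entries of a file, and for each transcript its percent of the gene's TPM. A second transcript table holds the authors' estimated counts and TPM, and was summed per gene. All were made on mm10 with GENCODE M21; the sources used here name no aligner, quantifier, version or use of strand, so overlapping or antisense genes may share reads. The 26345 entries without an annotated gene (26248 numbered, 97 spike-ins and phiX) were left out. Depth was 28263266 and 30862848 expected counts; a count of 0 allows up to 3 counts.

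Members and lists were chosen with earlier results of these data known. Named genes were the 15 highest, the largest differences among members with at least 100 mean counts, role lists, genes beside the minimum, extremes between tables, the highest with coding neighbours and those with the most transcripts; copies, small RNA hosts and RefSeq types were added after their values were seen.

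Rounded counts were compared without a test, as log2 CPM scaled by TMM (prior count 2, edgeR 4.0.16, R 4.3.3), over genes that reached 10 counts in either library. This step was tested on simulated counts. DESeq2 1.42.0 gave alternative size factors. Python 3.11.15 (pandas 2.3.3, numpy 2.4.6) and blastn 2.17.0 served for the rest. Alternatives varied the TPM minimum, table, scaling, prior count, dominance threshold and distances.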

Additional observations from a re-analysis of the deposited data

How the results depend on the processing

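With a minimum of 1 TPM 273 genes were found, with 4 TPM 92, and 391 by the TPM of the second table, of which 156 were among the 162. Requiring 1 library only gave 175 to 185 genes. The share of counts (mean 1.36%) was 1.54% without mitochondrial and small non-coding genes, 1.46% in the second table and 1.34 to 1.39% in single libraries. The number past 2-fold was 0, and 1 by TPM; 0 held under DESeq2 size factors, total counts, a prior count of 0.5, the second table and members with 100 or more counts. The median log2 difference of -0.0039 turned to 0.015 in the second table and 0.048 for members with 100 or more counts; the cause was not tested. A dominant transcript at over 75% was found in 25 members rather than 55, and in 65 to 65 with 1 library. Agreement between tables held for 143 members, and 144 to 145 with 1 library. Members within 1 kb downstream numbered 4 rather than 20. Low counts limit the precision: the lowest member had 13.0 counts in each library. No paired analysis was possible because both libraries belong to 1 group.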

Other observations

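Rmst, a lincRNA gene of neural progenitors, stood at 18.2 and 13.7 TPM and was no member because it has transcripts of other types; 204 genes would be found if 1 lincRNA transcript were enough. At the 5′ end of the main transcript, a C followed by 4 pyrimidines was found in Miat, Gm10076 and Snhg6 only, 1.85% of 162 members, beside 2.63% of other lincRNA genes and 2.33% of protein-coding genes at the minimum. The median GC content of the main transcript was 47.3% in members, 46.0% in other lincRNA genes and 50.6% in the coding genes. AC127249.1 held 5 Pumilio elements in 3241 nt, as did 0.124% of 18531 transcripts of like length, itself included.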
